A study of Mus musculus with 3 samples.

Results

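Collagen chain genes were followed in mixed cultures of adult mouse sensory ganglion cells after exposure to SEMA3E (semaphorin 3E). SEMA3E is a soluble axon guidance cue that binds plexin D1. The genes were taken by name: each probe set of the array that lists a single gene symbol made of Col, a digit and a chain number after the letter a, such as Col1a1. This gave 42 of the 30142 genes with a single-symbol probe set, each with 1 probe set: 11 fibrillar chains, 6 basement membrane chains of type IV and 25 others. Probe sets for Col7a1 and Col6a4 also list another gene and were not used. Of the 42 genes, 32 averaged no less than 43.7 intensity units (5.48 as log2), a background floor set at the level below which 95% of 492 vomeronasal receptor genes lay. These receptor genes were taken as silent in this tissue. Of all 30142 genes, 17653 lay at or above this floor, and counts above the floor are to be read beside that share.

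The RNA came from dissociated dorsal root ganglia of male ICR mice, an outbred strain, aged 8 to 10 weeks, and was taken after 72 hours in culture. Dorsal root ganglia sit beside the spinal cord and hold the cell bodies of sensory neurons. The 3 media were DMEM with B27 supplement (control), the same with recombinant SEMA3E at 1 µg/ml, and the same with SEMA3E at 1 µg/ml and SEMA3E-blocking IgG at 1 µg/ml. B27 supplement was thus present in every culture, and no array in these data had IgG without SEMA3E. Each medium had 1 array, so no difference below has an error or a test, and every statement compares single arrays.

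Collagens are matrix proteins built from 3 chains wound into a triple helix, and each chain is the product of its own gene. Fibrillar collagens form the tensile fibres of connective tissue, type IV forms the sheet-like scaffold of basement membranes, and fibril-associated collagens sit on the surface of fibres. In a ganglion, fibroblasts, the perineurium and blood vessels make most fibrillar collagen, and the satellite glia and Schwann cells around neurons are enclosed by basement membrane.

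The collagen chains differed little between the media. Of the 32 chains above the floor, 29 held an identical value in all 3 arrays (90.6%), beside 74.9% of all 17653 genes above the floor. The 3 chains that differed, beside 25.1% of all genes, were Col12a1, higher with SEMA3E and higher again with the blocking IgG, Col14a1, lower in both media with SEMA3E, and Col10a1, slightly lower with the IgG. Both Col12a1 and Col14a1 encode fibril-associated collagens. In the deposited values no fibrillar and no type IV chain differed between any of the arrays.

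**Figure D1:**
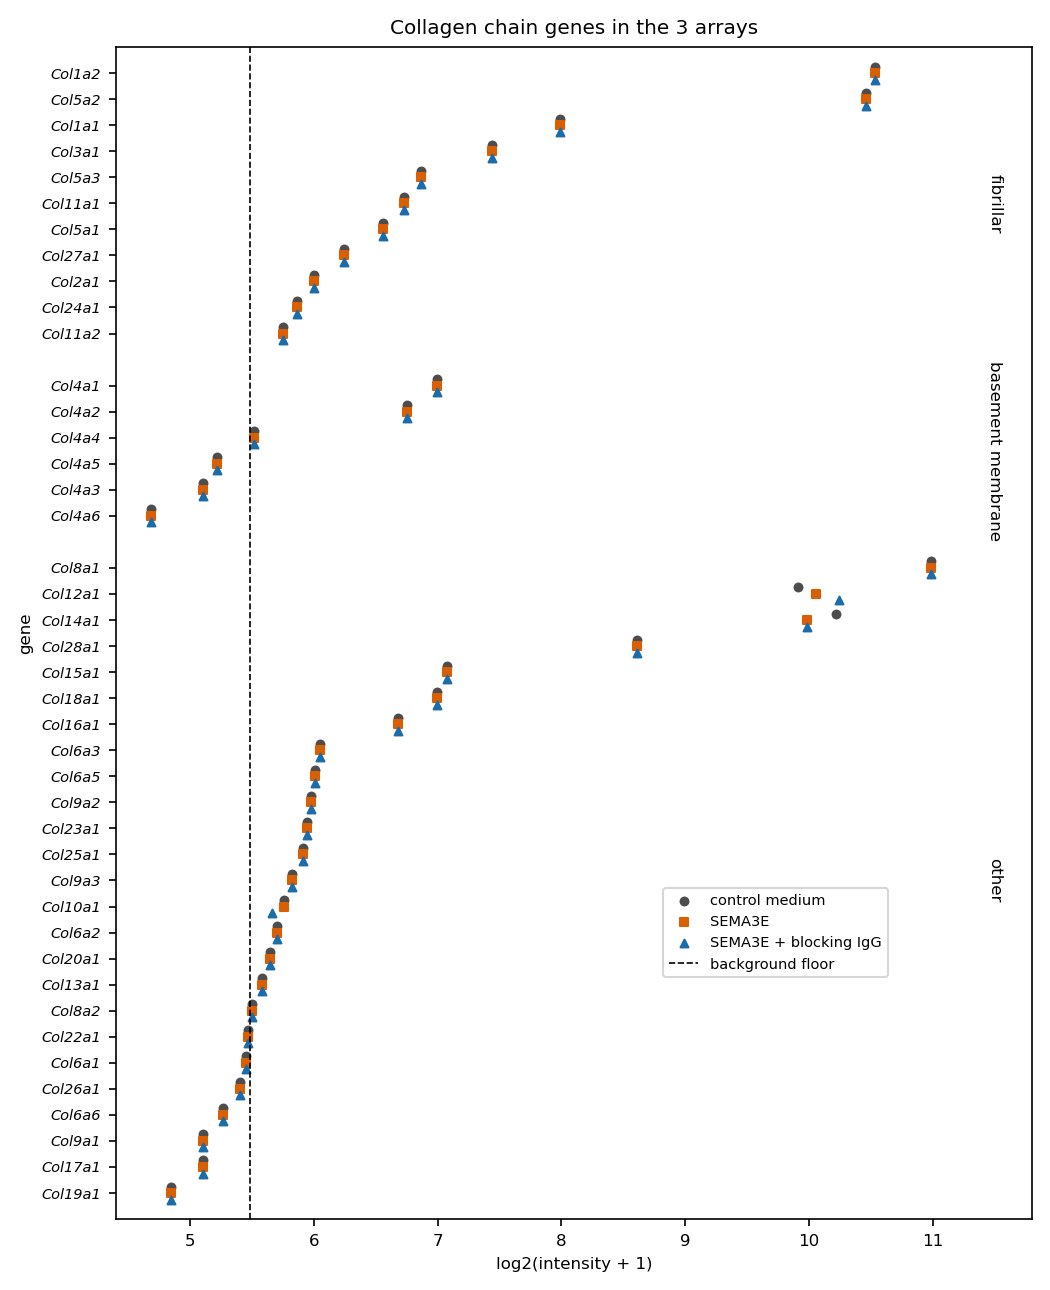
Values of the 42 collagen chain genes as log2(intensity + 1) on the horizontal axis, with 1 gene per line and 1 point per array (grey circle, control; orange square, SEMA3E; blue triangle, SEMA3E with blocking IgG); points are set apart vertically within a line so that equal values remain visible. The dashed line is the background floor at 5.48, and the points of Col12a1, Col14a1 and Col10a1 are the ones that do not line up.

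Equal values need not mean equal RNA, since the deposited values are coarse. Over all 65956 probe sets, 72.3% held the same value in all 3 arrays. Of the 29 collagen chains with identical values, 26 (89.7%) had exactly the value of at least 1 other probe set in each array, as did 65.6% of all such genes. Col4a1 and Col18a1 both stood at 126.6 units, a value found in 40 to 42 probe sets of an array. Col4a3, Col9a1 and Col17a1 all stood at 33.4 units, below the floor. Col1a2 and Col8a1 were constant too, with values that no other probe set held. Probe sets also differ in how strongly they bind, so a difference between the values of 2 genes does not show a difference in their RNA. Genes are called dim or bright below by their probe signal alone.

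Identical values were more common among genes of low probe signal, where most collagen chains lay. In the 5884 dimmest genes above the floor, between 5.48 and 6.96 on the log2 scale, 16.2% differed in some comparison, and 1 of 21 collagen chains did. Among the 5885 genes of middle brightness 19.2% differed, and 0 of 6 collagen chains. Among the 5884 brightest genes, from 9.10 upwards, 40.0% differed, and 2 of 5 chains did, namely Col12a1 and Col14a1. The other chains there were Col8a1, Col1a2 and Col5a2. With so few chains, these shares cannot be set apart from those of genes of like brightness.

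Col12a1 encodes the chain of type XII collagen, which links neighbouring fibres. It stood at 964 units in control medium, 1064 with SEMA3E and 1209 with SEMA3E and the IgG. The control array was lowest and the IgG array highest. On the log2 scale the difference was 0.14 between SEMA3E and control, 0.18 between the IgG medium and SEMA3E alone, and 0.33 between the IgG medium and control. The first of these only just exceeds 1.1-fold, which is 0.1375 on this scale.

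Col14a1 encodes type XIV collagen, a relative of type XII that also binds fibres. It stood at 1187 units in control medium and at 1009.9 in both media with SEMA3E. The 2 arrays with SEMA3E held the same value, below control by a log2 difference of −0.23, a ratio of 0.851. In the deposited values Col14a1 was thus equal with and without the blocking IgG, while Col12a1 lay further from control with it. The value of Col14a1 in both media with SEMA3E was also held by 1 other probe set, as was that of Col12a1 with SEMA3E alone. With such coarse values, the equality of Col14a1 need not mean equal RNA.

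Col10a1 encodes type X collagen, a short-chain collagen best known from growth plate cartilage. It stood at 53.0 units in control medium and with SEMA3E, and at 49.5 with the IgG, a log2 difference of −0.10. All of these values lie close to the floor of 43.7 units, and the difference is smaller than 1.1-fold.

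**Figure D2:**
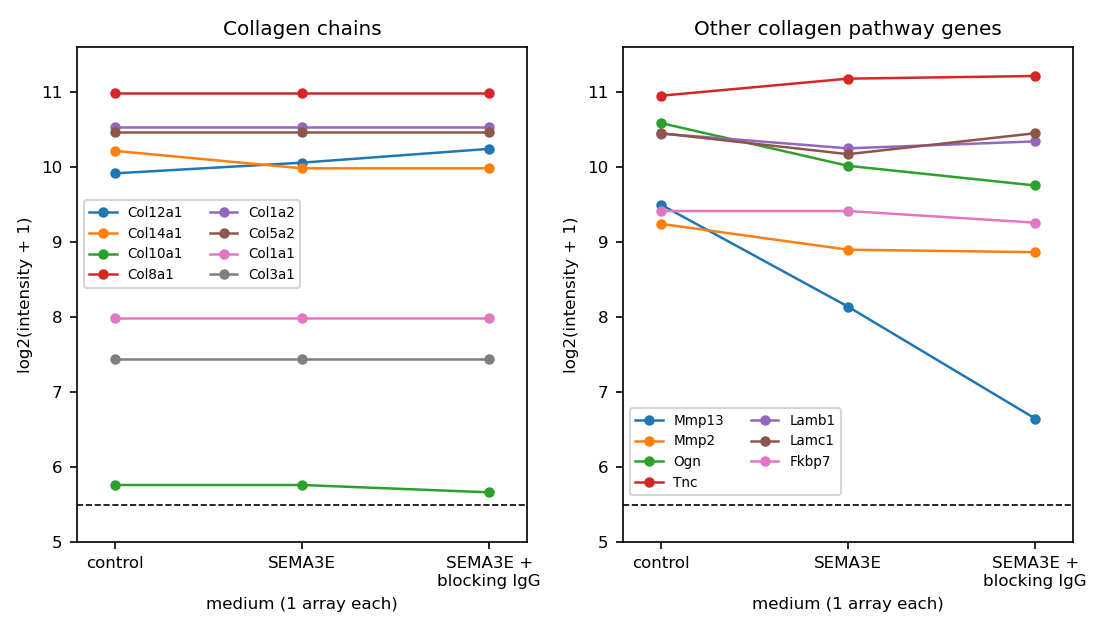
Log2(intensity + 1) in the 3 media, 1 array each, for collagen chains (left) and for other genes of the collagen pathway that differed by at least 1.1-fold in some comparison (right); lines join the values of 1 gene and the dashed line is the floor. Col12a1 goes from 9.91 over 10.06 to 10.24 and Col14a1 from 10.21 to 9.98, while Mmp13 goes from 9.50 over 8.14 to 6.64.

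SEMA3E against control, the comparison that asks what SEMA3E alters, had 1 of 32 collagen chains at least 1.1-fold higher (Col12a1), beside 1.38% of all genes above the floor, and 1 at least 1.1-fold lower (Col14a1), beside 2.36%. At any size the counts were also 1 higher and 1 lower, and 30 chains were identical. Over all genes 6.21% were higher and 12.3% lower by any amount. The median difference of the chains was 0.00, as it was over all genes.

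SEMA3E with blocking IgG against SEMA3E alone asks what the antibody alters. Col12a1 was the single chain at least 1.1-fold higher, beside 2.67% of all genes, and 0 of 32 chains were lower by that much, beside 2.08%. By any amount Col12a1 was higher (10.2% of all genes were) and Col10a1 lower (10.3%), and the median was 0.00.

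In SEMA3E with blocking IgG against control, which asks what remains different from control with the antibody present, Col12a1 was again at least 1.1-fold higher (2.11% of all genes were) and Col14a1 at least 1.1-fold lower (2.45%). By any amount 1 chain was higher, beside 7.59% of all genes, and 2 were lower, beside 11.4%, with the median again 0.00. The comparisons share arrays, so the values of a chain in them are not independent. With 1 or 2 chains in each count, none of these counts stands clear of the background.

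**Figure D3:**
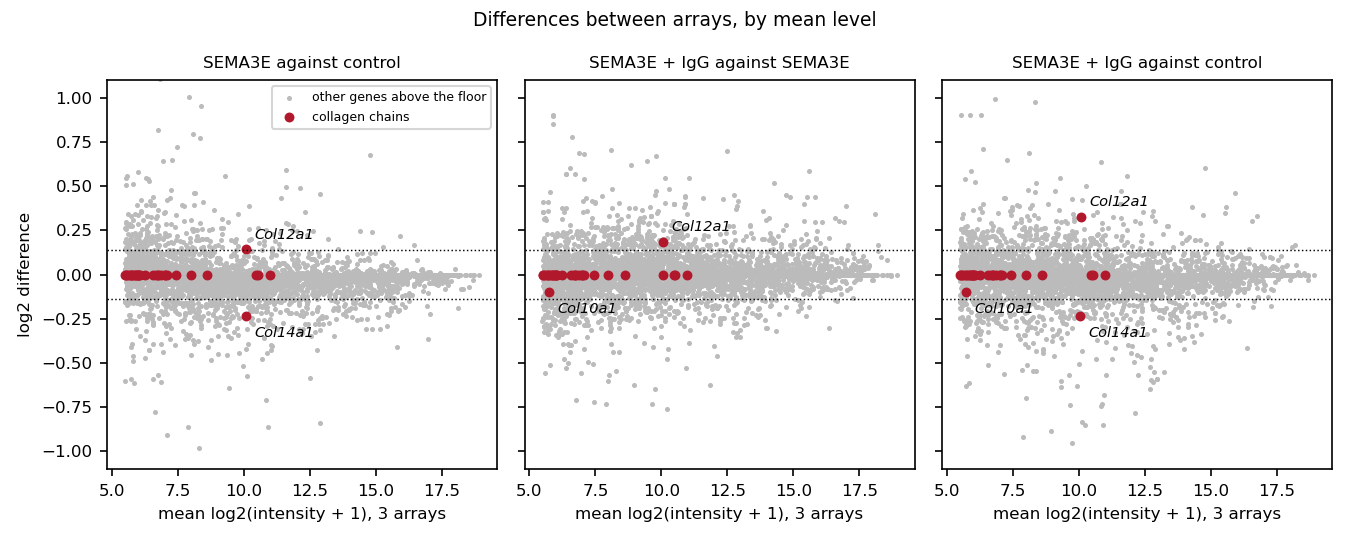
Log2 difference between 2 arrays (vertical axis) against the mean log2(intensity + 1) of the 3 arrays (horizontal axis) for genes above the floor, with the 32 collagen chains in red and other genes in grey; dotted lines mark 1.1-fold, and 7 genes beyond the axis are not drawn. Most red points lie at 0, and Col12a1 and Col14a1 lie within the cloud of genes of like brightness.

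The fibrillar chains were all above the floor and all identical in the 3 arrays. Type I collagen, the main collagen of fibrous tissue, is made of 2 chains from Col1a1 and Col1a2, which stood at 253 and 1478 units in every array. Col3a1, whose product forms thin fibres beside type I, stood at 172.8 units. Of the type V chains, which regulate fibre diameter, Col5a1 stood at 93.2, Col5a2 at 1409 and Col5a3 at 115.6 units. Type XI is the type V counterpart of cartilage, and its chains Col11a1 and Col11a2 stood at 105.2 and 52.9 units. Col2a1, the main collagen of cartilage, stood at 63.0 units, Col24a1 at 57.4 and Col27a1 at 74.8. Col11a2, Col24a1 and Col2a1 lay under 65.8 units, a stricter floor that 99% of the vomeronasal receptor genes do not exceed and that 17 of the 42 collagen chains reached.

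The type IV chains were likewise constant. Col4a1 and Col4a2, whose products together form the common type IV collagen of basement membranes, stood at 126.6 and 106.8 units in every array. Col4a4 stood at 44.8 units, just above the floor. Col4a3, Col4a5 and Col4a6, chains of more specialised basement membranes, stood at 33.4, 36.1 and 24.7 units, below it.

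Col4a1 and Col4a2 lie head to head on the genome and are read in opposite directions. RefSeq promoter windows (GRCm38.p6, 250 bases before to 50 after the annotated start) were found for 33 of the 42 chains, without Col12a1 and Col14a1 among them. The pair is shown because its 2 windows overlap: the annotated starts lie 21 bases apart and 78 bases belong to both, printed in capitals, so that the capitals of either line are the reverse complement of the other. Col4a1 is at chr8:11312777-11313076 on the minus strand and Col4a2 at chr8:11312555-11312854 on the plus strand.
Col4a1: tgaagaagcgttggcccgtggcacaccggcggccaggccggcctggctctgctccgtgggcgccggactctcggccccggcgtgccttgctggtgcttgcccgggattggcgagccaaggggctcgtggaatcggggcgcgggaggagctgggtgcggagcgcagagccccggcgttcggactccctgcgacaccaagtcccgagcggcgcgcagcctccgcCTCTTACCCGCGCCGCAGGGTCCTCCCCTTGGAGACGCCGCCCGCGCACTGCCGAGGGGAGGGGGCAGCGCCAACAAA
Col4a2: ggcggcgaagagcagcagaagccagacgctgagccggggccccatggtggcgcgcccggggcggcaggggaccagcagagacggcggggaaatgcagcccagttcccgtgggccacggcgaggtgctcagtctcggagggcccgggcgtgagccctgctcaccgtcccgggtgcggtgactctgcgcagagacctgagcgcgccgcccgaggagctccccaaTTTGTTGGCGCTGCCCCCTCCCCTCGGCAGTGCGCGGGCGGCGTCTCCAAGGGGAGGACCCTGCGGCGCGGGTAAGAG

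Windows of a bright, constant chain and of Col10a1, the one differing chain with an entry, are shown for contrast. In the window of Col1a2 (chr6:4505368-4505667, plus strand) the capitals mark CCAAT and GGGCGG on either strand. One CCAAT begins 109 bases before the start, and its reverse complement, ATTGG, begins at the start itself. In the window of Col10a1 (chr10:34389731-34390030, plus strand) the capitals mark TATAAA, which begins 32 bases before the start.
Col1a2: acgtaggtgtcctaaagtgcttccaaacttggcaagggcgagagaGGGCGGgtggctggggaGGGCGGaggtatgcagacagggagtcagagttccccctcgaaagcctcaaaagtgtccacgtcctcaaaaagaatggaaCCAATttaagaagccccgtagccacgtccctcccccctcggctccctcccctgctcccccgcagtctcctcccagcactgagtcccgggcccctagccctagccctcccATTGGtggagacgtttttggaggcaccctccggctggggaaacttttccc
Col10a1: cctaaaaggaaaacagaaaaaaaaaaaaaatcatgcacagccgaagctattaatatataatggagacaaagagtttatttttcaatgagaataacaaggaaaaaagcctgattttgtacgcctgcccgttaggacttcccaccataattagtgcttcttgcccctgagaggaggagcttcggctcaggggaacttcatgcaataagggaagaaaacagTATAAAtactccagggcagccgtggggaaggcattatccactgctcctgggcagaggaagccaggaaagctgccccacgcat

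Searched on both strands, the GC box GGGCGG stood in 21 of 36 collagen windows (58.3%; some chains have more than 1 window) and in 35.7% of all 32851 windows. CCAAT stood in 11 collagen windows (30.6%) and in 37.4% of all. TATAAA stood in 5 (13.9%), those of Col3a1, Col10a1, Col11a2, Col13a1 and Col17a1, and in 13.6% of all. None of the searched motifs contains another. A match describes letters in the window and no binding was measured.

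Among the other chains, Col8a1 encodes a short-chain collagen that forms hexagonal networks under vascular and corneal endothelium. It stood at 2021 units in all 3 arrays, and its partner Col8a2 at 44.2 units, at the edge of the floor. Of the type VI chains, which form beaded filaments in most connective tissue, Col6a2 stood at 51.2, Col6a3 at 65.1 and Col6a5 at 63.4 units, while Col6a1 (42.8) and Col6a6 (37.5) lay below the floor. Col22a1 at 43.3 units was the chain nearest below it. All of them were identical between arrays.

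Type XV and type XVIII collagens are proteoglycan collagens of the basement membrane zone, and the end of Col18a1's product is released as endostatin. Col15a1 stood at 134.1 and Col18a1 at 126.6 units. Col28a1, whose product lies in basement membranes around glia of peripheral nerve, stood at 389 units, and Col26a1 at 41.3, below the floor. Among the membrane-spanning collagens, Col13a1 stood at 46.9, Col23a1 at 60.5 and Col25a1 at 59.1 units, and Col17a1, the hemidesmosome collagen of skin, lay below the floor. Each of these held 1 value across the media.

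The remaining fibril-associated chains were constant as well. Col16a1 stood at 101.6 units, Col20a1 at 49.1, Col9a2 at 62.0 and Col9a3 at 55.6. Col9a1 and Col19a1 lay below the floor at 33.4 and 27.7 units. Within this class of 9 measured chains, 6 lay above the floor, and 2 of these 6, Col12a1 and Col14a1, differed between arrays, beside 25.1% of all genes and 40.0% of the brightest ones, where both lie.

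Several collagen genes are neighbours: 7 pairs of measured chains follow each other directly in the RefSeq order of protein-coding genes. In 2 of the pairs both genes lay above the floor, Col4a1 with Col4a2 and Col3a1 with Col5a2. The chains of all 7 pairs were identical in the 3 arrays, as were 92.9% of the 42 chains and 74.9% of all genes above the floor.

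Genes that serve collagens were taken from lists of their roles. For synthesis and folding inside the cell, all 24 measured genes lay above the floor, beside 17653 of all 30142 genes. With SEMA3E 0 of them stood 1.1-fold or more from control, beside 1.38% of all genes higher and 2.36% lower. With the IgG, Fkbp7, which encodes a prolyl isomerase of the endoplasmic reticulum, was lower than with SEMA3E alone and than in control. It stood at 9.41, 9.41 and 9.26 on the log2 scale in control, SEMA3E and IgG medium, a log2 difference of −0.16 both times. Fkbp7 was the 1 gene of this list at least 1.1-fold lower there, beside 2.08% and 2.45% of all genes. Of the list 0 were as much higher, beside 2.67% and 2.11%. P3h2, a prolyl 3-hydroxylase acting on type IV collagen, stood at 10.98, 11.11 and 11.11, a difference of 0.13 that falls just short of 1.1-fold. Serpinh1, the collagen chaperone HSP47, stood at 6.86 in all 3 arrays, and P4ha1, which hydroxylates proline and so stabilises the helix, at 10.31, 10.30 and 10.30.

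Of the genes for trimming and cross-linking procollagen outside the cell, 9 of 15 measured lay above the floor, beside 17653 of all 30142 genes. Of these 0 were 1.1-fold apart in any comparison, beside 1.38% to 2.67% of all genes in each direction of a comparison. Lox, which encodes the enzyme that starts cross-linking, stood at 7.09, 7.08 and 7.09, and Bmp1, which removes the end of procollagen, at 8.42 throughout. All 7 collagen receptor genes above the floor held identical values in the 3 arrays, as did 74.9% of all genes above it. The receptor genes include Itgb1 (14.36), Itga2 (10.66) and Ddr2 (9.60).

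The proteases that cleave collagen held the widest difference. Mmp13, which cuts fibrillar collagens, stood at 722 units in control medium, 280 with SEMA3E and 98.9 with the IgG, log2 differences of −1.36, −1.49 and −2.86 in the order of the comparisons. Mmp2, a gelatinase that degrades type IV and denatured collagen, stood at 9.24, 8.90 and 8.86 on the log2 scale (−0.35 between SEMA3E and control). Of the 5 listed proteases above the floor, 2 were at least 1.1-fold lower with SEMA3E than in control, beside 2.36% of all genes, and 0 higher. The list was chosen with earlier results of these data known, so this share is no test of the proteases against all genes. Mmp14, which sits on the cell surface and activates Mmp2's product, differed by −0.02, and Mmp8 and Ctsk were identical. The genes of the fibrillar chains that Mmp13's product cuts held 1 value each while Mmp13 itself differed. These values concern RNA, and neither collagen protein nor its cleavage was measured.

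Among the 11 other basement membrane genes above the floor, 2 laminin chains were at least 1.1-fold lower with SEMA3E than in control (2.36% of all genes were) and 0 were higher (1.38%). Lamc1, the gamma chain of most laminins, stood at 10.45 in control, 10.17 with SEMA3E and 10.45 with the IgG, equal in the first and last. Lamb1, a beta chain, stood at 10.45, 10.25 and 10.34. Between the IgG medium and SEMA3E alone, Lamc1 was the 1 gene of the list at least 1.1-fold higher, beside 2.67% of all genes. In that comparison 0 were as much lower, beside 2.08%. Nid1, which joins laminin to type IV collagen, stood at 13.97, 13.97 and 14.05. The other laminin genes above the floor, Lama2, Lama4, Lama5 and Lamb2, were identical in the 3 arrays, as Col4a1 and Col4a2 were.

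Of the 12 genes above the floor whose products bind collagen fibres or share their matrix, Ogn was at least 1.1-fold lower with SEMA3E than in control, beside 2.36% of all genes, and Tnc at least 1.1-fold higher, beside 1.38%. Ogn, a small leucine-rich proteoglycan that affects fibre assembly, stood at 10.59, 10.01 and 9.75 in control, SEMA3E and IgG medium. It was lower by −0.57 with SEMA3E and by a further −0.26 with the IgG. Tnc, the matrix glycoprotein tenascin C, stood at 10.95, 11.18 and 11.21. Dcn, the fibre-binding proteoglycan decorin, stood at 13.13 in every array, and Postn, periostin, at 15.38, 15.38 and 15.45.

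**Figure D4:**
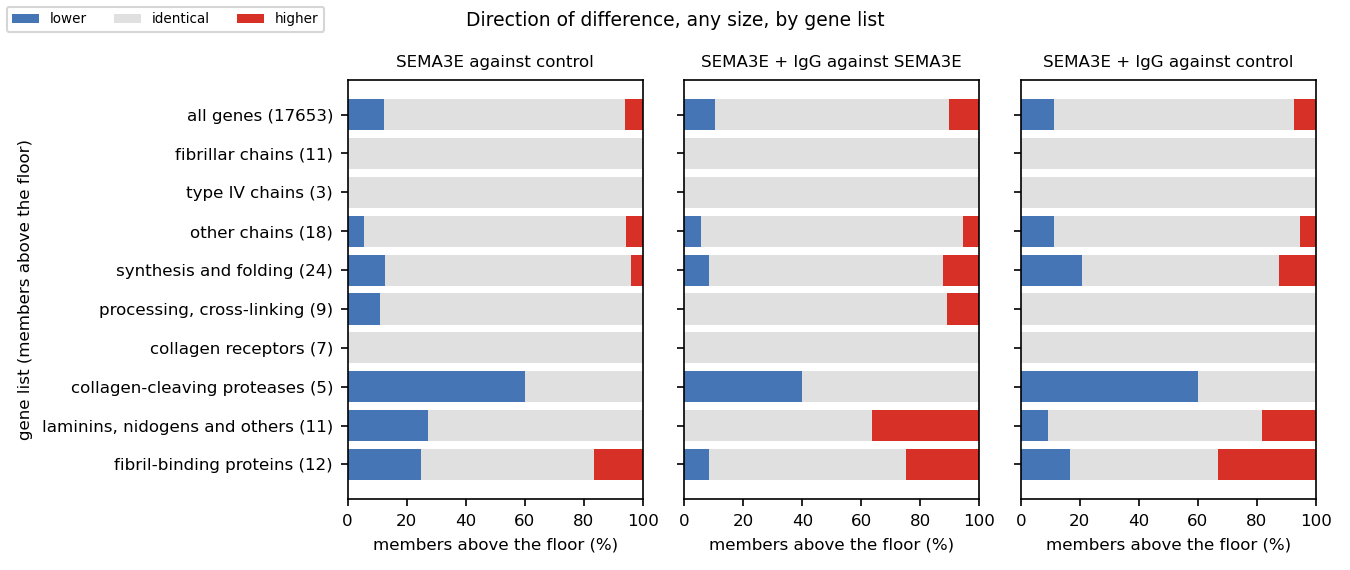
Share of the members above the floor that were lower (blue), identical (grey) or higher (red) by any amount in each comparison, for all genes, the 3 groups of collagen chains and 6 lists of genes of the collagen pathway, with the number of members in brackets. Fibrillar chains, type IV chains and collagen receptors are grey throughout. The proteases have 3 of 5 members lower with SEMA3E than in control, beside 12.3% of all genes, and 1 of the 3, Mmp14, by −0.02 alone. The lists were chosen with earlier results of these data known.

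The cells of the culture were checked by marker lists, in which no gene was listed at 0. All 12 neuronal markers lay above the floor, among them Uchl1 at 17.65 and Prph at 14.91 in every array. With SEMA3E 7 of the 12 were lower than in control by some amount, beside 12.3% of all genes, and 0 higher, beside 6.21%. Of the 7, Tubb3 (13.62, 13.46 and 13.46 in control, SEMA3E and IgG medium) was at least 1.1-fold lower. Most neuronal markers lay among the brightest genes, of which 40.0% differed in some comparison. Glial markers were present too (Pmp22 17.00, Cdh19 12.49). Of 9 measured fibroblast markers 6 lay above the floor, with Dcn at 13.13, while Dpt, Pi16 and Fbln1 lay below it. Of 10 mural markers 8 lay above it, and of 7 endothelial ones 6, with values from 5.66 for Kdr to 7.15 for Emcn. These counts stand beside 17653 of all 30142 genes above the floor. In a mixed culture, fewer cells of a type and less RNA per cell cannot be told apart.

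Beside Col12a1 and Col14a1, the marker lists moved as follows. The summed intensity of the fibroblast markers was 14223 in control, 14849 with SEMA3E and 14833 with the IgG. Of the 6 above the floor, Mgp (11.64, 11.89 and 11.89) was the 1 marker at least 1.1-fold higher with SEMA3E, and 0 were as much lower. Without Mgp the sums were 11040.4, 11056 and 11037. For mural markers the sums were 13707, 14532 and 14525, with Tagln (12.25, 12.47 and 12.47) the 1 of 8 at least 1.1-fold higher, and without Tagln they were 8844, 8844 and 8845. The higher sums of both lists thus came almost wholly from 1 gene each.

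Of 10 macrophage markers, 4 lay below the floor (Csf1r, Ptprc, Itgam and C1qb). For macrophage markers the sums were 4068, 4325 and 4238. Lyz2 (11.08, 11.28 and 11.20) was the 1 of the 6 above the floor at least 1.1-fold higher with SEMA3E. Without Lyz2 the sums were 1897, 1845 and 1891. For satellite glia they were 15891, 15751 and 15325, with 3 of 7 markers at least 1.1-fold lower with SEMA3E (Kcnj10, Fbln5 and Atp1b2). Higher with SEMA3E by a smaller amount were 2 of the 7, Fabp7 and Ednrb. Without Fbln5 the satellite glia sums were 13591, 13854 and 13451, so that SEMA3E then lay above control. The neuronal sums were 391518, 385537 and 386037, and without Nefl they were 298867.5, 296967.9 and 297068.6. Schwann cell sums were 138409, 138138 and 137886, with 0 of 6 markers 1.1-fold apart from control with SEMA3E. Without S100b the Schwann cell sum was 132154.4 in every array. Endothelial sums were 532.8, 525.0 and 525.0, with Cldn5 (6.17, 6.01 and 6.01) the 1 of 6 at least 1.1-fold lower. Without Cldn5 the endothelial sum was 461.6 in every array. These marker counts stand beside 1.38% of all genes higher and 2.36% lower by that much with SEMA3E. The part of these cells in the differences of Col12a1 and Col14a1 was not tested.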

How the data were processed

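Per the labels, RNA was isolated with TRIzol, cleaned on SV columns (Promega), then amplified and biotin-labelled (GeneChip WT Pico). The authors deposited intensities, made with Affymetrix Expression Console according to the submitters' processing notes. The version, normalization and build were not given in the sources used here. The values run from 6.12 to 496402 and array medians from 44.5 to 45.0, so log2(value + 1) was taken.

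Symbols came from the platform annotation: 30604 probe sets have 1 symbol and 2146 several, and 827 symbols were updated through gene numbers with RefSeq (GRCm38.p6). For 355 genes with several probe sets the brightest was kept. With 1 array per medium no test was possible, and precision is limited by that number. Members, lists and the 1.1-fold limit were chosen with earlier results of these data known.

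Each collagen chain was accounted for, and the text names each chain or pathway gene at least 1.1-fold apart in some comparison, the brightest chains and their trimer partners. Other genes are named as examples, chosen after their values were seen. The calling was tested on simulated arrays made from the control values, with known shifts put into chosen genes and no noise added. The outcome was fixed by the size of the shifts, so it checks the arithmetic alone. It does not show how often single arrays differ by as much. Alternatives were an offset of 16, centring, loess, quantile normalization, no floor, a floor at percentile 99 and the mean over probe sets. The tools were numpy 2.4.6, pandas 2.3.3, statsmodels 0.14.6 and matplotlib 3.10.9 under Python 3.11.15.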

Additional observations from a re-analysis of the deposited data

How the results depend on the processing

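The counts of collagen chains at least 1.1-fold higher or lower were the same under an offset of 16, centring, loess and quantile normalization. They were also the same with no floor, a floor at percentile 99 and the mean over probe sets. Each chain has 1 probe set, so the mean over probe sets could not alter its value. The settings of the floor alter which chains are counted and not their differences. Chains below the floor were identical in all arrays, and Col12a1 and Col14a1 lie above the stricter floor. Equal counts under these settings were thus fixed beforehand. The medians of the chains moved by less than 0.1 under all alternatives. Col12a1, Col14a1 and Col10a1 kept their directions under the same alternatives, except that Col10a1 lies below the stricter floor and has no value there. Chains with equal deposited values differed by −0.04 to 0.03 after quantile normalization and by 0.0062 after centring where a control array was compared. Further limits of size were tried after the data were seen. At 1.2-fold, 0 chains were higher with SEMA3E than in control and 0 lower, and 0 were higher in the IgG medium than with SEMA3E alone. In the IgG medium against control 0 were lower, while Col12a1 remained the 1 higher. The shares of all genes at 1.2-fold were not counted, so these counts cannot be set against a background. Counting any difference, 1 chain was lower with the IgG than with SEMA3E alone, beside 10.3% of all genes. By the same count 2 were lower with the IgG than in control, beside 11.4%. With an offset of 16 the difference of Mmp13 was −1.37 between the IgG medium and SEMA3E and −2.68 against control. No paired analysis was possible because each medium has 1 array. Near the floor, a low signal limits what could be seen in most chains.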
